A study of Callithrix jacchus with 54 samples.

Results

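The lateral mesoderm and vascular-like genes comprised 8 genes, FOXF1, HAND2, APLNR, KDR, ANGPT2, ESM1, ALCAM and CD226, of the 14812 genes in the expression table. They were chosen because they were higher under BMP4-containing medium or with BMS493, an inverse agonist of retinoic acid receptors, and lower when SOX17 was added. The members were thus selected on the measured differences of these comparisons, which are therefore given as a description, with no test. All 8 were found in the table and all 8 passed the filter on low values that left 11197 genes. Part of that passage rests on the conditions in which they are high.

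FOXF1 and HAND2 are transcription factors that work in the lateral plate mesoderm, the sheet of embryonic mesoderm from which the heart, the vessels, the limb bud mesenchyme and the gut wall are formed. APLNR is the receptor for apelin peptides and KDR is the main signalling receptor for VEGF, and both are carried by early mesoderm as well as by endothelium. ANGPT2 is a secreted ligand that modulates the receptor TEK, ESM1 is a secreted proteoglycan known from activated endothelium, ALCAM is a cell adhesion molecule, and CD226 is an adhesion receptor best known from natural killer and T cells.

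RNA was measured in 54 libraries of 27 conditions, 2 libraries each, from common marmoset embryonic stem cells (cjESC) driven toward primordial germ cell-like cells. All conditions derived from 1 female line, CMES40, that carries BLIMP1-tdTomato and NANOS3-eGFP reporters. ROCK inhibitor was in the pre-treatment and induction media. The paper's methods give it to cjESC for 24 h after plating and to xrOvaries for the first 2 days. cjESC kept in DK20FA carried inducible BLIMP1, SOX17 and TFAP2C transgenes and were moved to BMP4, LIF, SCF and EGF (BLSE), to BLSE with SOX17 switched on by dexamethasone (SOX17+BLSE), or to the same without BMP4 (SOX17+LSE). cjESC kept in PESFA carried no inducible transgene. They were pre-treated for 24 h with IM12, a WNT pathway activator, and activin A. They were then moved to BLSE with the WNT inhibitor IWR1 (BLSE+IWR1), or with IWR1 and BMS493 (BLSE+IWR1+BMS). Each course was sampled at 12, 24, 48 and 96 h, BLSE+IWR1 also at day 6, and sorted cells of xrOvaries, which are aggregates with somatic cells of mouse E12.5 female gonads, at day 20, 40 and 70. cjESC were maintained on a feeder layer of irradiated mouse embryonic fibroblasts, and the pre-treatment was on fibronectin. cjESC and pre-treated cells were sorted for TRA-1-60, and cells of 12 to 48 h were taken unsorted. Cells from 96 h on were sorted for tdTomato, except that BLSE cells at 96 h were taken unsorted. The courses with inducible transgenes and those with IWR1 therefore differ in transgenes, starting medium, pre-treatment and IWR1 at once. Dexamethasone came only with SOX17, and these cannot be told apart. The libraries of a condition were prepared as biological duplicates, all of them from this 1 line.

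Levels are TPM, transcript abundances scaled for transcript length and for the library total, which can be set side by side between genes. Differences are given on the log2(TPM + 1) scale with the standard error of the fit, and they understate the change of genes near 0. In bulk samples such as these, fewer cells of a type and less RNA per cell cannot be told apart. Library totals over the listed genes ran from 790300 to 839203 TPM, 10146 to 12688 genes were above 0, and the correlation between the 2 libraries of a condition was 0.977 to 0.994. TPM carry no read depth, so the depth behind each value is unknown.

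FOXF1 and HAND2, the transcription factors, were both highest in BLSE but at very different levels. FOXF1 stood at 6.82 and 9.88 TPM in the 2 libraries of DK20FA cjESC and at 49.2 and 52.8 TPM after 12 h of BLSE. It was at 70.5 and 48.3 TPM at 24 h, 110.3 and 118 TPM at 48 h, and 115 and 88.7 TPM at 96 h. No BLSE library overlapped the cjESC libraries, and the log2 difference from cjESC was 2.49 ± 0.32 (SE) at 12 h and 3.64 ± 0.32 at 48 h.

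With SOX17 the FOXF1 level stayed below that of BLSE. The SOX17+BLSE libraries held 10.2 and 11.8 TPM at 12 h, 10.0 and 9.26 TPM at 24 h, and 20.3 and 13.0 TPM at 48 h. At 96 h, in sorted cells, they held 0.16 and 0 TPM against 115 and 88.7 TPM in unsorted BLSE cells. The difference from BLSE widened from -2.12 ± 0.32 at 12 h through -2.48 ± 0.32 and -2.74 ± 0.32 to -6.57 ± 0.32 at 96 h, and the groups were apart at every time.

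In the courses with IWR1 FOXF1 was low until 48 h, when BMS493 set the groups apart most widely. BLSE+IWR1 libraries held 14.0 and 7.59 TPM at 48 h and BLSE+IWR1+BMS libraries 43.6 and 75.8 TPM, a log2 difference of 2.36 ± 0.32. At 24 h the same comparison stood at 2.22 and 3.08 TPM against 7.30 and 6.29 TPM. At 96 h all 4 sorted libraries lay between 0.64 and 1.38 TPM, and the groups overlapped.

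HAND2 was scarcely detected. It was listed at 0 in 23 of the 54 libraries and reached 1 TPM in 13. Its highest level was in BLSE at 96 h, 9.45 and 9.19 TPM, after 2.67 and 1.36 TPM at 48 h and 0 in both libraries at 12 h. DK20FA cjESC held 0 and 0.17 TPM, while PESFA cjESC held 3.97 and 3.02 TPM and pre-treated cjESC 2.59 and 4.37 TPM.

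With SOX17 the HAND2 level lay apart from BLSE at 24 h, at 0.16 and 0 TPM against 0.31 and 0.66 TPM, values next to 0, and at 96 h. SOX17+BLSE libraries held 3.60 and 1.5 TPM at 48 h, which overlapped BLSE, and were listed at 0 in both libraries at 96 h. With BMS493, HAND2 stood at 1.65 and 4.57 TPM at 48 h against 1.43 and 0.66 TPM without it, so the groups lay apart by a narrow margin.

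**Figure D1:**
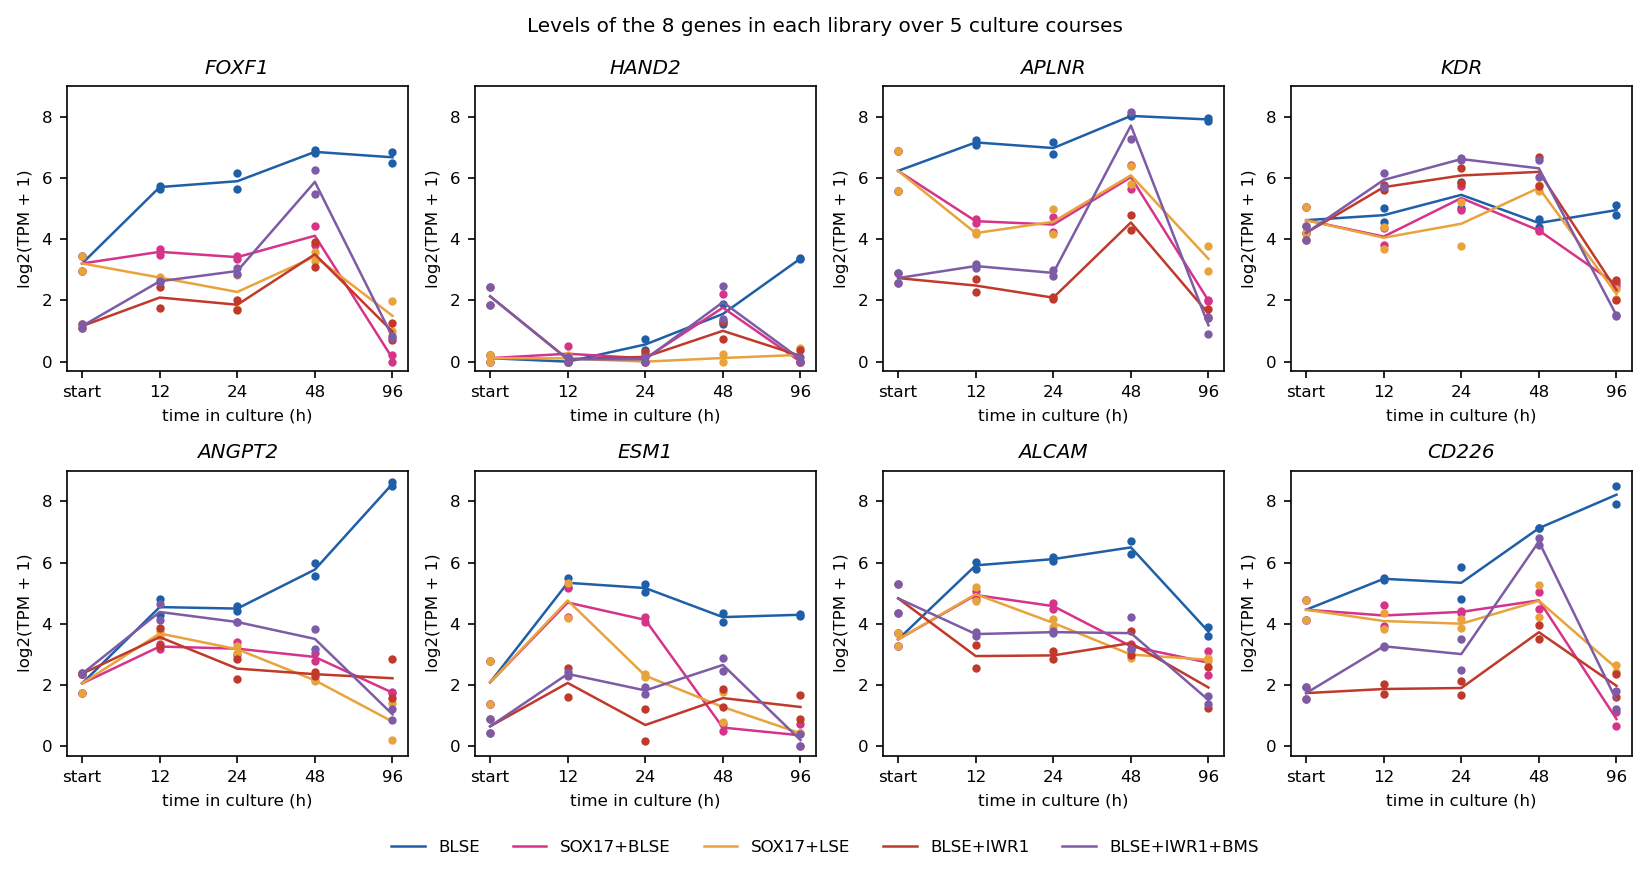
Level of each gene as log2(TPM + 1) against time in culture (start, 12, 24, 48 and 96 h, evenly spaced) for 5 culture courses; points are the 2 libraries of a condition and lines join their means. BLSE, SOX17+BLSE and SOX17+LSE start from DK20FA cjESC, and the 2 courses with IWR1 from pre-treated cjESC; the BLSE course lies above the others for 6 genes from 12 h on, while KDR is highest in the courses with IWR1 up to 48 h and in BLSE at 96 h, and HAND2 is near 0 in most libraries.

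Of the 2 receptors, APLNR followed the course of FOXF1 and KDR did not. APLNR was already at 46.9 and 117 TPM in DK20FA cjESC, against 6.36 and 5.92 TPM in PESFA cjESC. In BLSE it stood at 133 and 151 TPM at 12 h, 143 and 109 TPM at 24 h, 262 and 256 TPM at 48 h and 233 and 246 TPM at 96 h. The groups were apart from cjESC at 12, 48 and 96 h and overlapped at 24 h, and the difference at 48 h was 1.79 ± 0.34.

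SOX17+BLSE libraries held less APLNR than BLSE at every time, and less than the starting cells at 12, 24 and 96 h. They stood at 21.9 and 24.3 TPM at 12 h, 25.6 and 17.7 TPM at 24 h, 84.6 and 48.4 TPM at 48 h and 2.91 and 3.05 TPM at 96 h. The difference from BLSE was -2.57 ± 0.34 at 12 h, -2.50 ± 0.34 at 24 h, -2.0 ± 0.34 at 48 h and -5.92 ± 0.34 at 96 h. At 48 h the 2 SOX17+BLSE libraries overlapped the starting cells, of which one held 46.9 TPM.

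APLNR gave the widest difference of the 8 genes with BMS493. At 48 h BLSE+IWR1+BMS libraries held 281 and 155 TPM and BLSE+IWR1 libraries 26.7 and 18.6 TPM. The log2 difference was 3.17 ± 0.34 at 48 h, after 0.64 ± 0.34 at 12 h and 0.81 ± 0.34 at 24 h. At 96 h the groups overlapped, at 1.74 and 0.89 TPM with BMS493 and 1.70 and 2.26 TPM without it.

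KDR, although listed with the others, did not differ from cjESC beyond the spread of libraries in BLSE. DK20FA cjESC held 32.0 and 17.3 TPM, and BLSE libraries 31.1 and 22.6 TPM at 12 h, 57.7 and 31.4 TPM at 24 h, 20.1 and 24.3 TPM at 48 h and 26.8 and 33.3 TPM at 96 h. The groups overlapped at all 4 times, and the difference ran from -0.09 ± 0.38 at 48 h to 0.83 ± 0.38 at 24 h. With SOX17 it was lower than in BLSE by the widest margin at 96 h, where sorted SOX17+BLSE cells held 4.5 and 4.99 TPM.

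The highest KDR levels were in the courses with IWR1, with or without BMS493. BLSE+IWR1 libraries held 48.0 and 53.9 TPM at 12 h, 56.4 and 78.6 TPM at 24 h and 51.8 and 101 TPM at 48 h. Addition of BMS493 gave 98.7 and 95.2 TPM at 24 h, and at 48 h the groups overlapped, with 95.7 and 64.3 TPM. At 48 h BLSE+IWR1 exceeded BLSE for KDR by 1.67 ± 0.38 on the log2 scale, while FOXF1, APLNR, ANGPT2, ESM1, ALCAM and CD226 were lower, with differences of -3.48 to -2.64. KDR was the 1 gene of the 8 that was higher there without overlap, beside a background of 30.4% of all genes, and 6 of 8 were lower, beside 26.3%. This comparison shares the BLSE libraries with those that chose the genes and is described only. Its groups also differ in transgenes, starting medium and pre-treatment.

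ANGPT2 and ESM1, the secreted products, were higher in BLSE on different schedules. ANGPT2 stood at 4.18 and 2.34 TPM in DK20FA cjESC and climbed in BLSE through 27 and 18.6 TPM at 12 h, 23.1 and 20.3 TPM at 24 h and 46.6 and 61.9 TPM at 48 h to 365 and 396 TPM at 96 h. The last value was the highest mean level of any of the 8 genes in any condition, and its difference from cjESC, 6.52 ± 0.33, was the widest of the 8 genes in BLSE. SOX17+BLSE libraries stayed between 5.94 and 9.61 TPM up to 48 h and held 2.40 and 2.35 TPM at 96 h, a difference from BLSE of -6.82 ± 0.33.

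With BMS493 the ANGPT2 difference changed sign between the unsorted and the sorted samples. It was 0.82 ± 0.33 at 12 h, 1.52 ± 0.33 at 24 h and 1.15 ± 0.33 at 48 h, with the groups apart at each time. At 96 h BLSE+IWR1+BMS libraries held 1.33 and 0.83 TPM and BLSE+IWR1 libraries 2.02 and 6.24 TPM, a difference of -1.18 ± 0.33, and the 2 BLSE+IWR1 libraries were themselves far apart.

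ESM1 peaked early. It stood at 5.89 and 1.63 TPM in DK20FA cjESC and at 44.1 and 35.5 TPM at 12 h of BLSE, and then at 32.0 and 38.3 TPM at 24 h, 15.9 and 19.6 TPM at 48 h and 19.2 and 18.2 TPM at 96 h. SOX17+BLSE libraries were also high at first, at 35.2 and 17.6 TPM at 12 h and 15.6 and 17.5 TPM at 24 h, and held 0.42 and 0.65 TPM at 48 h. The difference from BLSE was -0.64 ± 0.42 at 12 h and -3.61 ± 0.42 at 48 h, so the groups parted mostly after 24 h. In the courses with IWR1, ESM1 did not exceed 6.32 TPM in any library.

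ALCAM and CD226, the adhesion molecules, were both higher in BLSE until 48 h and went apart by 96 h. ALCAM stood at 12.0 and 8.75 TPM in DK20FA cjESC, 54.8 and 63.9 TPM at 12 h of BLSE, 72.1 and 64.8 TPM at 24 h and 76.6 and 104 TPM at 48 h, and was back at 11.1 and 13.9 TPM at 96 h, where it overlapped cjESC. SOX17+BLSE libraries lay below BLSE at each time, with differences of -3.23 ± 0.39 at 48 h and -1.01 ± 0.39 at 96 h. PESFA cjESC held 37.8 and 106 TPM, and no library with IWR1 exceeded 17.7 TPM. With BMS493 the groups were apart at 12 and 24 h, by 0.72 ± 0.39 and 0.76 ± 0.39, and overlapped at 48 and 96 h.

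CD226 was higher in BLSE than in DK20FA cjESC at each time. Its 12 and 24 h libraries overlapped, and it was higher again at 48 h and at 96 h. It stood at 16.6 and 26.6 TPM in DK20FA cjESC, 44.2 and 42.6 TPM at 12 h, 57.1 and 27.3 TPM at 24 h, 138 and 139 TPM at 48 h and 363 and 242 TPM at 96 h. SOX17+BLSE libraries lay between 14.4 and 31.9 TPM up to 48 h and held 1.16 and 0.60 TPM at 96 h, and the difference from BLSE there, -7.32 ± 0.36, was the widest of the 8 genes. With BMS493 at 48 h CD226 stood at 94.7 and 110 TPM against 10.3 and 14.6 TPM, a difference of 2.96 ± 0.36.

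Counted over the 8 genes, the libraries of BLSE lay above those of DK20FA cjESC without overlap for 6 genes at 12 h, 6 at 24 h, 7 at 48 h and 6 at 96 h. Of all 11197 genes, 22.6%, 21.8%, 30% and 27.4% did so at the same times. SOX17+BLSE lay below BLSE for 7, 7, 7 and 8 genes, beside 16.8%, 16.6%, 24.6% and 27.6% of all genes. BLSE+IWR1+BMS lay above BLSE+IWR1 for 5, 7, 6 and 0 genes, beside 29.5%, 26.6%, 24% and 17.2% of all genes, and below it for 3 genes at 96 h, beside 29.6%. These are the comparisons that chose the genes, and nothing is read from the counts.

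**Figure D2:**
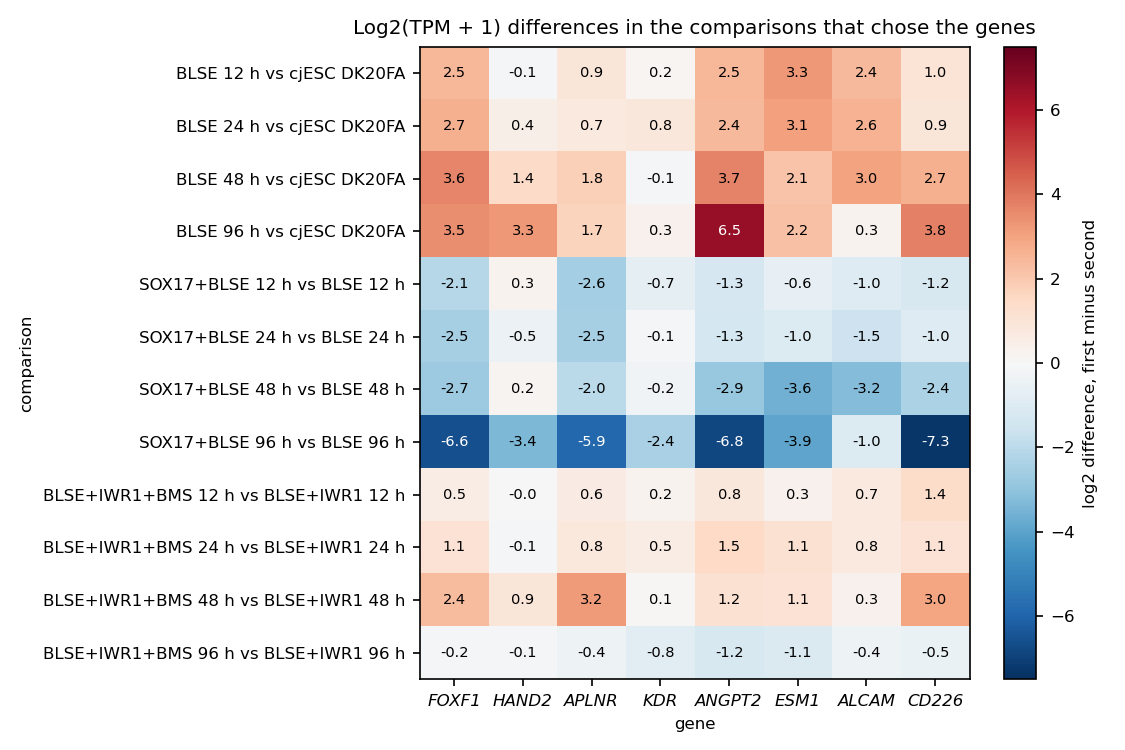
Log2(TPM + 1) differences of the 8 genes (columns) in the 12 comparisons that were used to choose them (rows), first condition minus second, with colour from blue (lower) to red (higher) and the value printed in each cell. The widest differences are those of SOX17+BLSE against BLSE at 96 h, where sorted cells were set against unsorted cells, and KDR lies between -0.1 and 0.8 in the BLSE rows.

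The median difference of the 8 genes was 1.71, 1.66, 2.40 and 2.73 for BLSE over cjESC at 12, 24, 48 and 96 h, and that of all genes between -0.08 and -0.01. For SOX17+BLSE over BLSE the medians were -1.08, -1.17, -2.55 and -4.93, while that of all genes shifted to 0.24 at 96 h. For BMS493 they were 0.58, 0.95, 1.12 and -0.44.

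Removal of BMP4 from the SOX17 course, a comparison of SOX17+BLSE with SOX17+LSE, shares libraries with those above and is also described only. FOXF1 was higher with BMP4 at 12 h (10.2 and 11.8 against 5.72 and 5.70 TPM), 24 h (10.0 and 9.26 against 6.12 and 2.29 TPM) and 48 h (20.3 and 13.0 against 11 and 8.66 TPM). At 96 h its order was the opposite, with 0.16 and 0 TPM with BMP4 and 1.02 and 2.94 TPM without it. HAND2 at 48 h, at 3.60 and 1.5 TPM with BMP4 and 0.18 and 0 TPM without it, and ESM1 at 24 h, at 15.6 and 17.5 against 4.13 and 3.78 TPM, were the genes with the widest positive differences, 1.64 ± 0.29 and 1.82 ± 0.42.

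KDR went the other way at 48 h. Its 2 SOX17+LSE libraries stood at 54 and 46.3 TPM and those of SOX17+BLSE at 18.7 and 18.3 TPM, a difference of -1.39 ± 0.38. CD226 and APLNR overlapped at 48 h and were lower with BMP4 at 96 h, with differences of -1.66 ± 0.36 and -1.36 ± 0.34. Libraries were higher with BMP4 and apart for 2, 4, 4 and 2 of the 8 genes at 12, 24, 48 and 96 h, beside 15.7%, 18.6%, 29.9% and 24.7% of all genes. They were lower and apart for 1, 0, 2 and 3 of the 8, beside 15.7%, 26.5%, 28.1% and 28%.

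The time course within SOX17+LSE was not among the comparisons that chose the genes and was tested with limma over all genes. It is a course with SOX17, and the genes were chosen for being lower with SOX17. Falls within it are therefore not independent of the choice. A gene was called where it changed by more than 4-fold at a Benjamini-Hochberg adjusted p under 0.01 with a mean log2 level above 1.5. From 12 to 24 h ESM1 fell, from 39.5 and 17.3 TPM to 4.13 and 3.78 TPM, with a log2 difference of -2.46 ± 0.42 and an adjusted p of 0.000917 by limma. It was the 1 gene called of 8, beside a background of 0.0536% of all genes called. The call was lost in limma without either 24 h library, at -2.51 and -2.41, and without replicate 1 of 12 h, at -1.88.

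From 12 to 48 h ESM1 fell further, to 2.40 and 0.75 TPM, with a difference of -3.48 ± 0.42 and an adjusted p of 2.48e-07 by limma. It was again the 1 gene called of 8, beside 0.545% of all genes. Of the genes short of 4-fold, ALCAM stood at -1.97 ± 0.39 (limma, adjusted p = 0.000789) and ANGPT2 at -1.53 ± 0.33 (limma, adjusted p = 0.00208), both lower at 48 h in both libraries. APLNR, from 17.1 and 17.6 TPM to 82.6 and 54.1 TPM, stood at 1.89 ± 0.34 (limma, adjusted p = 0.000193), and KDR, from 20.2 and 11.9 TPM to 54 and 46.3 TPM, at 1.63 ± 0.38 (limma, adjusted p = 0.00408). Within 1 course the receptors were higher and the secreted genes and ALCAM lower, and over the 8 genes 3 were higher and 3 lower without overlap, beside 29.4% and 19.1% of all genes. Leaving out 1 library raised the count of calls to 2, with ALCAM called without replicate 1 of 48 h (-2.08) or replicate 2 of 12 h (-2.19) and APLNR called without replicate 2 of 48 h (2.19).

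From 48 h, unsorted, to 96 h, sorted, 3 of the 8 genes fell past the call, beside 1.5% of all genes called and 0.625% called lower, and 5 of the 8 had the mean level that a call requires. KDR fell to 3.15 and 4.14 TPM, by 3.46 on the log2 scale (SE 0.38; limma, adjusted p = 7.79e-09). APLNR fell to 6.71 and 12.6 TPM, a difference of -2.73 ± 0.34 (limma, adjusted p = 9.56e-08). CD226 fell from 37.5 and 17.9 TPM to 4.44 and 5.31 TPM, a difference of -2.20 ± 0.36 (limma, adjusted p = 1.15e-05), and this call was lost without replicate 1 of 48 h, at -1.69.

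Between 48 and 96 h FOXF1 came just short of 4-fold, at -1.93 ± 0.32 (limma, adjusted p = 1.32e-05), and was called without replicate 2 of 96 h (-2.42) or replicate 2 of 48 h (-2.09). ANGPT2 stood at -1.35 ± 0.33 (limma, adjusted p = 0.00207). For ESM1 and ALCAM, which had been lower since 48 h, limma gave adjusted p of 0.124 and 0.8. The sort and the later time cannot be told apart in this comparison. Libraries of 7 of the 8 genes lay lower without overlap, beside 27.5% of all genes.

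Pre-treatment of PESFA cjESC with IM12 and activin A was not among the comparisons that chose the genes either. limma called 0 of the 8 genes, beside 0.0357% of all genes, and gave 4 of the 8 an unadjusted p under 0.05. The share of all genes at that unadjusted p is not given, so nothing is read from this last count. ANGPT2 was the nearest, with 12.1 and 15.3 TPM before and 4.13 and 4.23 TPM after, a difference of -1.5 ± 0.33 (limma, adjusted p = 0.0161). FOXF1 stood at 2.40 and 3.41 TPM before and 1.12 and 1.36 TPM after, a difference of -0.79 ± 0.32 with an adjusted p of 0.262 by limma. Libraries were lower and apart for FOXF1, ANGPT2, ESM1 and CD226, beside 16% of all genes, and overlapped for the other 4. The differences were negative for all 8, of which that of HAND2, -0.03 ± 0.29, turned to 0.02 under quantile normalization.

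Moving the pre-treated cells into BLSE+IWR1 for 12 h, a comparison that shares libraries with the BMS493 one, separated KDR upward and HAND2 and ALCAM downward. KDR stood at 14.6 and 20.8 TPM before and 48.0 and 53.9 TPM after, a difference of 1.49 ± 0.38. HAND2 went from 2.59 and 4.37 TPM to 0 and 0.12 TPM, and ALCAM from 19.5 and 38.7 TPM to 9 and 4.96 TPM. The summed level of 14 smooth muscle and mesenchyme genes, led by COL1A1 with a mean of 2050.2 TPM in pre-treated cells, went from between 3108 and 5699 TPM to between 414 and 501 TPM in the same step, and its part in the HAND2 and ALCAM levels was not tested. Whether reads of the feeder fibroblasts of the cjESC culture entered these levels was not tested. Libraries were higher and apart for 4 of the 8 genes, beside 26.8% of all genes, and lower for 2, beside 23.7%.

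In the germ cell-like cells of later stages all 8 genes were low. At day 6 of BLSE+IWR1 the highest library of any of the 8 was CD226 at 2.42 TPM, and KDR stood at 1.22 and 1.88 TPM. Between day 6, day 20 and day 70 none of the 8 reached the mean level that a call requires, so no count of calls is given. From day 6 to day 20 in xrOvaries the widest differences were those of CD226, from 0.92 and 2.42 TPM to 0.22 and 0 TPM (-1.21 ± 0.36; limma, adjusted p = 0.00892), and of KDR, to 0.25 and 0 TPM (-1.18 ± 0.38; limma, adjusted p = 0.0164).

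From day 20 to day 70 the differences ran from -0.79 ± 0.39 for ALCAM to 0.09 ± 0.29 for HAND2. FOXF1 and ESM1 were listed at 0 in all 6 xrOvary libraries, and KDR in both libraries of day 40 and of day 70. APLNR and ALCAM were the only genes of the 8 above 0 in every xrOvary library, at 0.12 to 1.43 TPM and 0.12 to 2.04 TPM. At this level the TPM values do not show whether a change is absent or not detectable.

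**Figure D3:**
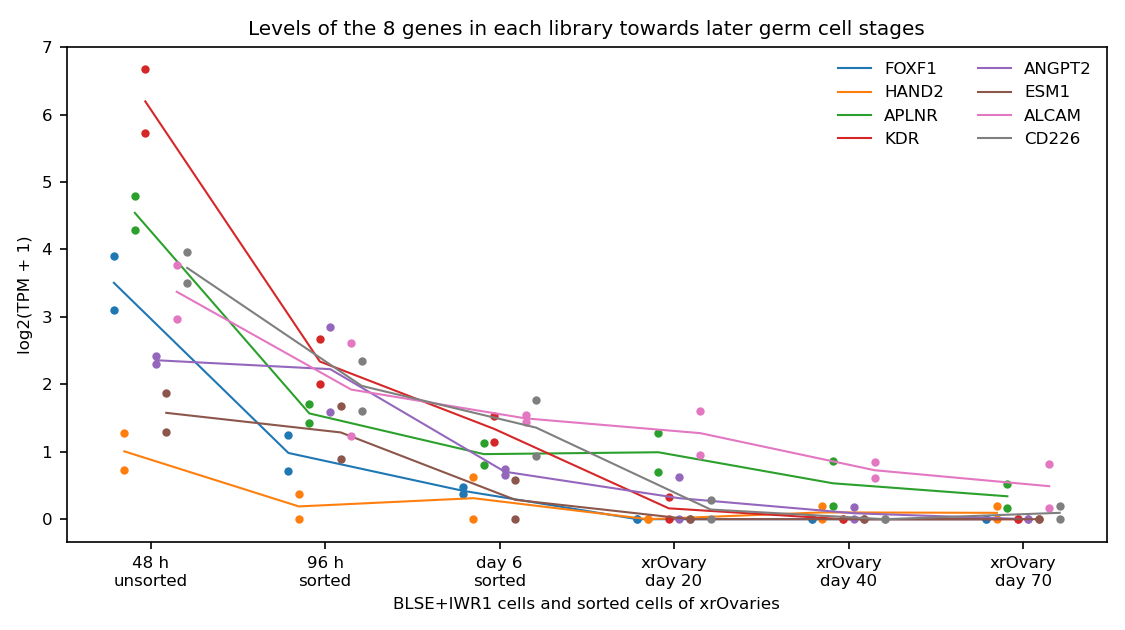
Level of the 8 genes as log2(TPM + 1) in BLSE+IWR1 cells at 48 h (unsorted), 96 h and day 6 (sorted), and in sorted cells of xrOvaries at day 20, 40 and 70; points are the 2 libraries and lines join their means. KDR is the highest gene at 48 h, at 51.8 and 101 TPM, and from day 6 on no library of any gene exceeds 2.42 TPM.

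The 2 starting cultures of cjESC differed in these genes before any induction. APLNR (46.9 and 117 against 6.36 and 5.92 TPM), CD226 (16.6 and 26.6 against 3.49 and 5.50 TPM) and FOXF1 were higher in DK20FA. ALCAM, ANGPT2 and HAND2 were higher in PESFA, by 2.52 ± 0.39, 1.81 ± 0.33 and 2.05 ± 0.29 on the log2 scale. KDR and ESM1 overlapped. The DK20FA libraries also served in the comparisons that chose the genes, so these differences are described only. Of all genes, 23.4% were higher and 34.1% lower in PESFA without overlap, and medium and transgenes cannot be told apart. Markers of mesenchyme moved with this difference: the summed level of 14 smooth muscle and mesenchyme genes was 511 to 590 TPM in DK20FA and 2915 to 4187 TPM in PESFA, with all 14 at a mean of 1 TPM or more in PESFA. Their part in the levels of ALCAM, ANGPT2 and HAND2 was not tested. Whether reads of the feeder fibroblasts entered any of these levels was not tested either.

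Across the 27 condition means of log2(TPM + 1), APLNR and CD226 had a Pearson correlation of 0.97, FOXF1 and CD226 of 0.96 and FOXF1 and APLNR of 0.95. The 15 pairs among FOXF1, APLNR, ANGPT2, ESM1, ALCAM and CD226, a set formed after the values were seen, had correlations of 0.67 to 0.97 with a median of 0.76. KDR correlated with the other 7 at 0.26 to 0.67, and HAND2 at 0.17 to 0.56. These are descriptions over conditions that share lines, starting cells and sorting, and the points include the conditions from day 6 on, in which all 8 genes are near 0.

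**Figure D4:**
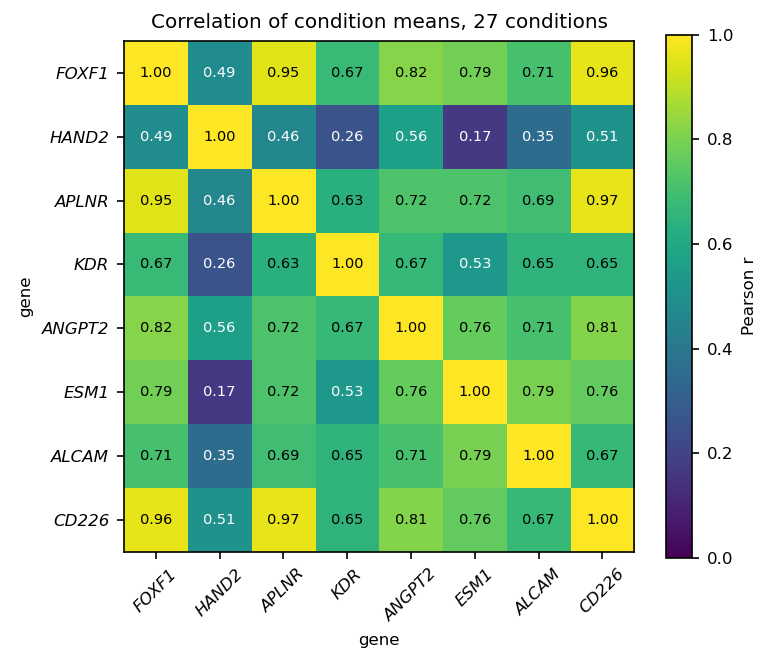
Pearson correlation of the condition means of log2(TPM + 1) for each pair of the 8 genes, over 27 conditions, with colour from 0 to 1 and the value printed in each cell. FOXF1, APLNR and CD226 form the pairs at 0.95 to 0.97, and the HAND2 row holds the lowest values.

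The genes whose condition means were most like those of each gene differed among the 8. For FOXF1 they were HLX, a homeobox transcription factor (r = 0.97), DOK4 (r = 0.97) and ARHGAP31 (r = 0.96). For HAND2 they were HGF, a secreted growth factor (r = 0.87), and the homeobox genes HOXB9 (r = 0.85) and HOXB3 (r = 0.85), of which HGF stood at a mean of 16.3 TPM in BLSE at 96 h and was listed at 0 in DK20FA cjESC.

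For APLNR they were CD226, ALAS2, an enzyme of haem synthesis (r = 0.96), and FOXF1, and for CD226 they were APLNR, FOXF1 and OBI1 (r = 0.96). For KDR they were HUNK (r = 0.97), E2F3 (r = 0.96) and AP1S2 (r = 0.96). For ANGPT2 they were TNFSF10 (r = 0.93), OLFML2B (r = 0.93) and TBX4, a T-box factor of the lung and hindlimb mesoderm (r = 0.93). For ESM1 they were MICAL2 (r = 0.92), HCLS1 (r = 0.92) and HS3ST3A1 (r = 0.90), and for ALCAM they were SMURF2 (r = 0.93), ST8SIA2 (r = 0.91) and CCN2 (r = 0.91). All of these are the top of a search over all genes that passed the filter, and each r is over 27 conditions.

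Lists of related genes were set beside the 8 genes in the comparisons that had chosen them. They share no gene with the 8, and limma was run over all genes. The lists were drawn up with earlier results of these data known. The paper had already reported HAND1 as higher in BLSE and SNAI2 as higher with BMS493. The counts are therefore not independent of these data. Of the lateral mesoderm factors, 20 of 28 could be fitted. At 48 h of BLSE 7 of the 20 rose and 0 fell, beside 3.38% of all genes called. TBX4 rose by 5.85 on the log2 scale, ISL1 by 4.73, TBX20, a cardiac T-box factor, by 4.66, and FOXF2, the close relative of FOXF1, by 3.18. At 96 h 8 of the 20 rose and 0 fell, beside 6.12%, and the median of the list was 1.83.

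With SOX17 at 48 h 3 of the 20 lateral mesoderm factors fell and 1 rose, beside 2.02% of all genes. TBX4 fell from 132 and 144 TPM to 18.9 and 12.3 TPM, TCF21 fell by 2.72 on the log2 scale and BMP4 fell by 2.59, while PDGFRA rose by 2.26. With BMS493 at 48 h 1 of the 20 rose, beside 0.241% of all genes. This was SNAI2, a zinc finger factor of mesenchymal cells, at 34.4 and 66.5 TPM against 10.8 and 8.15 TPM.

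Of the endothelial genes, 23 of 32 could be fitted. The shares of all genes called were 3.38% and 6.12% for BLSE at 48 and 96 h, 2.02% with SOX17 and 0.241% with BMS493. At 48 h of BLSE 5 rose and 1 fell, with ENG, a TGF-beta co-receptor, at 2.95, LMO2 at 2.68, SOX7 at 2.55 and MMRN2 at -2.69. At 96 h 9 rose and 1 fell, with PLVAP at 3.80, LMO2 at 3.52, CDH5 at 3.46, S1PR1 at 3.36 and MCAM, the 1 that fell, at -2.03. With SOX17 at 48 h 2 of 23 fell, with ENG at -2.33 and SOX7 at -2.45. With BMS493 at 48 h 1 of 23 rose, TEK, the receptor of ANGPT2, from 0.57 and 0.49 TPM to 5.71 and 4.78 TPM.

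The 28 endothelial genes in the table were uneven in BLSE at 96 h, where HAND2, ANGPT2 and CD226 had their highest means. Of the 28, 20 had a mean of 1 TPM or more and 1, EMCN, was listed at 0 in both libraries. PLVAP (45.1 TPM), LMO2 (32.9 TPM), S1PR1 (17.9 TPM), EGFL7 (14.8 TPM) and DLL4 (4.11 TPM) had their highest condition mean there. CD34 stood at 24.1 TPM and TIE1 at 4.97 TPM, and both were highest in sorted germ cell-like cells. The highest mean of CD34 was 53.3 TPM, in xrOvaries at day 20, and that of TIE1 8.2 TPM, in BLSE+IWR1 at day 6. Other genes of the list stood lower in BLSE at 96 h, among them ERG at 0.775 TPM, TAL1 at 0.535 TPM, CLDN5 at 0.45 TPM, VWF at 1.33 TPM and TEK at 2.94 TPM. ERG, TAL1 and STAB2 (0.405 TPM) also had their highest condition mean there, at these low levels. PECAM1 stood at 14.1 TPM in BLSE at 96 h, at 10.3 TPM in DK20FA cjESC and highest, at 17.2 TPM, in xrOvaries at day 20. CDH5 stood at 19.1 TPM in BLSE at 96 h, at 0.86 TPM in DK20FA cjESC and at 28.4 TPM in PESFA cjESC. FLT1 stood at 208 TPM in BLSE at 96 h and at 150 TPM in DK20FA cjESC. The summed level of the 28 endothelial genes in the table was 303 to 312 TPM in DK20FA cjESC, 548 to 559 TPM in BLSE at 96 h and 158 to 184 TPM in SOX17+BLSE at 96 h. Whether endothelial cells were present in these unsorted cells, and their part in the levels of the 8 genes, was not tested.

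The remaining lists bear on the partners of these genes and on other cells. The shares of all genes called in each comparison are those given for the endothelial genes. Shares of all genes at an unadjusted p under 0.05 are not given, so nothing is read from the counts at that threshold. Of 15 VEGF, angiopoietin and apelin partners, 4 of which are also endothelial genes of the list above, 1 rose at 48 h of BLSE, NRP2 by 2.35, and 3 at 96 h, PGF by 3.06, NRP2 by 2.86 and TIE1 by 2.11. APLN, which encodes the ligand of APLNR, was listed at 0 in both DK20FA cjESC libraries. It had a mean of 0.115 TPM in BLSE at 96 h and its highest condition mean, 7.9 TPM, in PESFA cjESC. APELA, the other ligand of APLNR, stood at 5.37 TPM in DK20FA cjESC and 6.37 TPM in BLSE at 96 h. With SOX17 at 48 h limma called 0 of 15, with 7 at an unadjusted p under 0.05. FLT1, another VEGF receptor, stood at 91.5 and 101 TPM against 301 and 359 TPM there, and PLCG1 at 89.1 and 86.0 against 80.9 and 81.1 TPM. With BMS493 1 of 15 rose, TEK.

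Of 14 smooth muscle and mesenchyme genes limma called 0 at 48 h of BLSE, with 9 at an unadjusted p under 0.05, and MYL9 and TPM2 were the most abundant, at means of 125 TPM and 99.4 TPM. At 96 h 2 rose, LUM by 4.42 and CSPG4 by 2.41, and 3 fell, with COL1A2 at -3.49, PDGFRB at -3.08 and COL1A1 at -2.47. With SOX17 at 48 h 1 rose, S100A4 by 3.52, to a mean of 31.6 TPM. Its 2 BLSE libraries were themselves far apart, at 0 and 6.63 TPM. With BMS493 0 of 14 were called by limma, with 7 at an unadjusted p under 0.05, TPM2 standing at 95.4 and 125 against 150.5 and 140.5 TPM and MYL9 at 64.3 and 91.4 against 64.7 and 61.5 TPM.

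Of 4 fitted blood cell genes CD14 rose by 3.21 at 48 h of BLSE, from 91.2 and 109 TPM to 976 and 887 TPM. limma called 0 of 4 at 96 h, with 2 at an unadjusted p under 0.05, 0 of 4 with SOX17 at 48 h, with 1, and 0 of 4 with BMS493, with 2. RUNX1 stood at 4.61 and 6.57 TPM in BLSE at 96 h. PTPRC, the pan-leukocyte marker, did not exceed 0.48 TPM in any library. Of the 16 genes of this list 9 were in the expression table, and CD3E, GNLY, KLRD1 and CD8A were not. The part of blood cells in the CD226 levels was not tested.

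Of 10 amnion-like genes, of which ISL1, HEY1 and BMP4 also stand among the lateral mesoderm factors, 4 rose at 48 h of BLSE, ISL1 by 4.73, GATA2 by 3.96, VTCN1 by 3.5 and TFAP2A by 2.25, and 6 at 96 h, led by VTCN1 at 5.25, IGFBP3 at 4.59, ISL1 at 4.51 and GATA2 at 4.34. With SOX17 at 48 h 1 was called, BMP4, which fell, and the median of the list was 0.035. Of the 4 that rose at 48 h of BLSE, GATA2 and TFAP2A had higher means with SOX17 than in BLSE. These were 351 against 127 TPM and 43.7 against 14.5 TPM. ISL1, at 18.4 against 30.2 TPM, and VTCN1, at 9.6 against 13.6 TPM, had lower ones. With BMS493 limma called 0 of 10, with 3 at an unadjusted p under 0.05, and BMP4 and HEY1 stood at 1.37 and 0.62. The part of such cells in the levels of the 8 genes in BLSE was not tested.

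**Figure D5:**
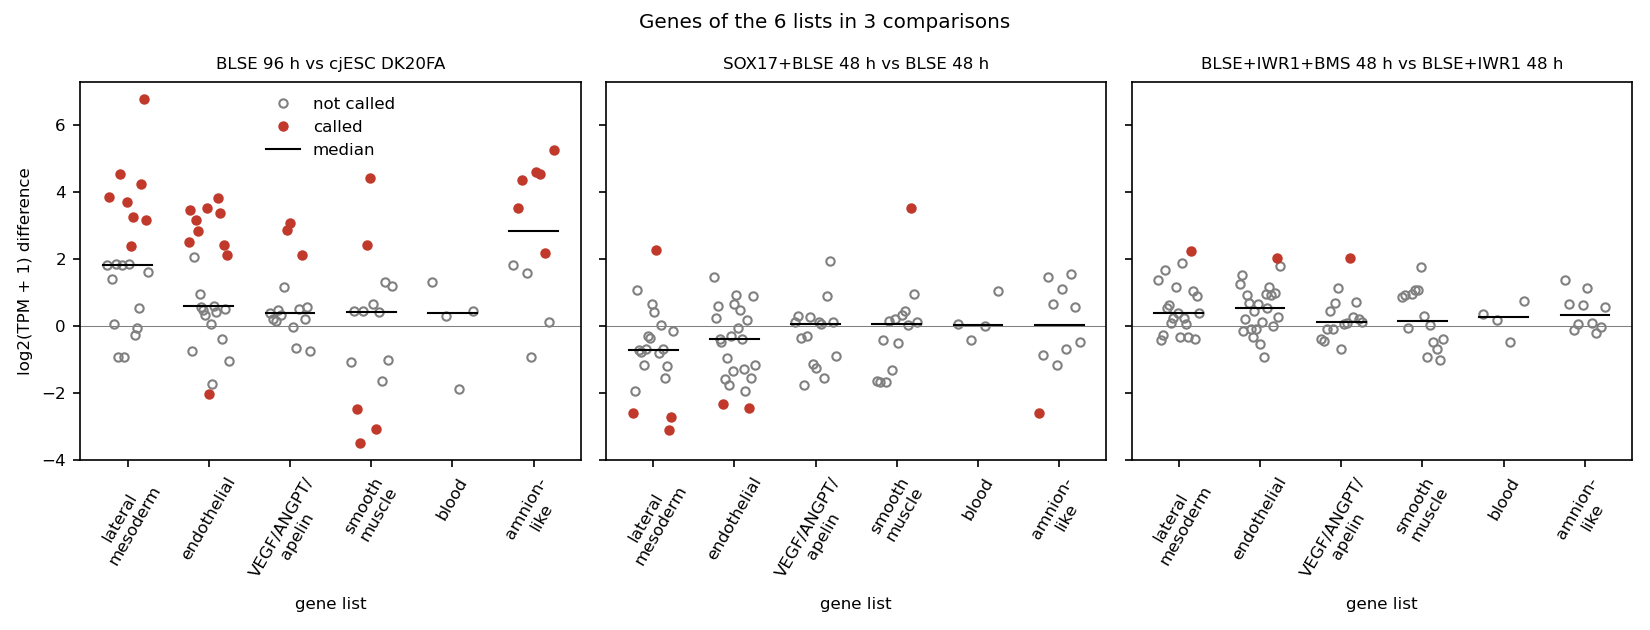
Log2(TPM + 1) differences of the genes of the 6 lists in BLSE at 96 h against DK20FA cjESC, SOX17+BLSE against BLSE at 48 h, and BLSE+IWR1+BMS against BLSE+IWR1 at 48 h; each point is a gene, filled where called and open where not, and bars are list medians. In the first panel 8 lateral mesoderm factors and 9 endothelial genes are called higher, and in the third 1 of each.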

How the data were processed

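RNA of 54 libraries (27 conditions, 2 each) was sequenced. Per the paper's methods and the submitters' processing notes, the authors aligned reads with STAR, filtered them on mapping quality, quantified them with RSEM on Callithrix_jacchus_cj1700_1.1 and deposited TPM for 14812 genes shared by marmoset and human. Because TPM hold no counts, depth is unknown and the study's count-based test could not be run.

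Here TPM were taken as log2(TPM + 1), genes at 1.5 or more in at least 1 library (11197) were kept, and limma 3.58.1 in R 4.3.3 was fitted with 1 mean per condition over all libraries (27 residual degrees of freedom), with an intensity trend and Benjamini-Hochberg adjustment over all genes. The cut-offs for a call, a change of over 4-fold, a level averaging over 1.5 in log2 and adjusted p below 0.01, follow those of the study, which set the level on log2 CPM of counts and not on log2(TPM + 1). The fit was tested on simulated data. Groups came from the labels. The 8 genes, the lists and the tests were chosen with earlier results of these data known. Named list genes were the up to 4 called ones with the widest change or, where none was called, the 2 with the highest TPM. Named similar genes were the 3 with the highest correlation, without locus-number symbols. Other genes of the lists outside the table are not analysed here. Alternatives covered the pseudocount, filter, scaling, trend, samples fitted, threshold, replicate block and each library left out. No sequence or genome of the build was used here, so a planned search for promoter motifs was not run.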

Additional observations from a re-analysis of the deposited data

Results flagged for a closer look

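In several genes both libraries moved one way at one time and both moved the other way at another time under the same contrast. The differences between times were not tested. In each pair of opposite signs below that includes 96 h, the 96 h cells were sorted for tdTomato and the earlier ones were unsorted.

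With BMS493 added to BLSE+IWR1, KDR was higher at 24 h (0.53 on the log2 scale) and lower at 96 h (-0.83). ANGPT2 was higher at 12 h (0.82), 24 h (1.52) and 48 h (1.15) and lower at 96 h (-1.18). ESM1 was higher at 24 h (1.13) and 48 h (1.08) and lower at 96 h (-1.08).

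With BMP4 present in the SOX17 course (SOX17+BLSE minus SOX17+LSE), FOXF1 was higher at 12 h (0.84), 24 h (1.14) and 48 h (0.68) and lower at 96 h (-1.39). APLNR was higher at 12 h (0.39) and lower at 96 h (-1.36), and CD226 higher at 24 h (0.39) and lower at 96 h (-1.66). KDR went the other way, lower at 48 h (-1.39) and higher at 96 h (0.31). ANGPT2 was lower at 12 h (-0.43) and higher at 48 h (0.76) and 96 h (0.95). ESM1 was higher at 24 h (1.82) and lower at 48 h (-0.67), both in unsorted cells.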

How the results depend on the processing

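Filter removal and the fit without an intensity trend left all 14 counts of calls within 1.5 times. With a pseudocount of 0.1 the calls in SOX17+LSE became 0 for 24 against 12 h and 2 for 48 against 12 h, and they became 2 for 48 against 12 h under median-ratio scaling and under quantile normalization. Endothelial genes called with BMS493 at 48 h became 0 under median-ratio scaling, and both lateral mesoderm factors and endothelial genes became 0 in a fit of only the libraries compared. At an adjusted p under 0.05 alone the members called were 1 for pre-treatment, 5 for SOX17+LSE 48 against 12 h, 5 for 96 against 48 h and 2 for day 20 against day 6. The same threshold gave 13 lateral mesoderm factors and 12 endothelial genes at 48 h of BLSE, 15 lateral mesoderm factors at 96 h, 9 and 13 with SOX17, and 6 and 8 with BMS493. The share of all genes at this threshold is not given here, so nothing is read from these counts about the members or the lists. The cause was not tested.

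With 1 library left out, the lone library being assumed to vary like the others, members called ranged from 0 to 1 (SOX17+LSE 24 against 12 h), 1 to 2 (48 against 12 h) and 2 to 4 (96 against 48 h). Endothelial genes with SOX17 ranged from 2 to 4, reaching 4 without BLSE 48 h replicate 1. With BMS493, lateral mesoderm factors ranged from 1 to 3, with 3 without BLSE+IWR1+BMS replicate 2 and 2 without BLSE+IWR1 replicate 2, and endothelial genes from 0 to 2, with 0 without BLSE+IWR1+BMS replicate 1 or BLSE+IWR1 replicate 2 and 2 without BLSE+IWR1+BMS replicate 2. Signs turned for some uncalled genes. HAND2 after pre-treatment was 0.025 under quantile normalization, and with 1 library left out it ranged from -0.32 to 0.26, KDR from -0.75 to 0.35 and APLNR from -0.26 to 0.048. In SOX17+LSE, 24 against 12 h, APLNR ranged from -0.038 to 0.78, KDR from -0.26 to 1.18, FOXF1 from -1.03 to 0.086 and CD226 from -0.35 to 0.17. ALCAM at day 20 against day 6 ranged from -0.55 to 0.11. In a fit of only the libraries compared, 7 differences of HAND2 and 1 of FOXF1 had no value because no compared library passed the filter.

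The samples share only replicate numbers. Deviations of same-numbered samples correlated at -0.09 to 0.27, and the replicate block changed none of the 14 counts by over 1.5 times and kept the 4 counts of members called given above at 0, 1, 1 and 3. The counts for day 20 and day 70, where no member reached the level a call needs, could only be 0 and say nothing about stability. Median-ratio scaling moved the median of all genes by -0.11 and -0.24 for SOX17+BLSE against BLSE at 24 and 96 h and by 0.13 for day 70 against day 20. Depth is unknown, so values near 0 set no limit on absence. The promoter motif search was not run.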
